A study of Saccharomyces cerevisiae with 3 samples.

Results

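The genes described here are those of pyrimidine nucleotide synthesis and uracil uptake in budding yeast (Saccharomyces cerevisiae): URA1, URA2, URA3, URA4, URA5, URA6, URA7, URA8, URA10 and FUR4. They were chosen by gene symbol, 10 genes of the 5449 that the array measured, and each had 1 probe set. Haploid cells were kept at 30 °C in synthetic medium until stationary phase, with no further treatment, and their RNA was put on 3 arrays, of which 2 carry the label RPA12 deletion and 1 the label wild type. All 3 are described as the strain BY4741, of mating type a, carrying his3Δ 1, leu2Δ 0, met15Δ 0 and ura3Δ 0, so the controls share the loss of URA3. RPA12 codes for one of the small subunits of RNA polymerase I, which makes ribosomal RNA. The growth protocol of the wild-type array also speaks of RPA12Δ cells, and its genotype label was followed.

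Yeast builds the pyrimidine ring on carbamoyl phosphate and aspartate, attaches ribose phosphate to the finished ring, and obtains UMP. UMP is phosphorylated to UTP, and CTP synthase aminates UTP to CTP. UTP inhibits the first enzyme, and the transcription factor Ppr1 activates several of the later genes when pathway intermediates accumulate. Cells without URA3 cannot complete this route and live on uracil taken up from the medium, which enters UMP through a separate salvage reaction.

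Several labels went against the data. On the log2 scale, RPA12 itself was at 5.74 and 5.79 where it is labelled deleted and at 3.60 in the wild type. MET17 (MET15), labelled as lost in all cells, read 9.43 and 9.36 against 1.56, LYS2 read 1.42 and 0.97 against 6.08, and the mating-type genes HMLALPHA1 (7.08 and 7.05 against 1.13) and HMRA1 (1.25 and 1.09 against 7.41) were opposite. Of the other mating-type markers, MF(ALPHA)1 (8.94 and 8.80 against 1.75) and STE3 (6.89 and 6.81 against 2.11) were higher, as HMLALPHA1 was. MFA2 (6.01 and 6.10 against 8.26) was lower, as HMRA1 was, while STE2 (6.37 on both against 5.61) was higher. HIS3, labelled his3Δ 1 in all cells, read 9.27 and 9.30 against 6.73. The labels do not say how much of HIS3 was removed, so its signal is not counted as against them. LEU2, labelled leu2Δ 0 in all cells, read 1.75 on both against 1.91. These LEU2 values are close to the background levels of 1.42 and 1.84 explained below and do not go against the label. Array controls differed too: the 36 poly-A spike-in probe sets had a median difference of -3.81 and the 27 hybridization controls one of -1.48. The 17 ribosomal RNA probe sets had a median difference of -1.74, from -3.73 to -0.09. None of the scalings below was set by these controls, and differences relative to them were not tested. Strain background, array processing and the RPA12 label therefore cannot be told apart in any difference below, and "the deletion arrays" means the arrays labelled so.

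URA3, the strain marker of the 10 genes, gave no signal above background on any array, as its label states. It encodes orotidine phosphate decarboxylase, which makes UMP. Its probe set read 1.25 on all 3 arrays, under the background level of 1.42 on each deletion array and 1.84 on the wild-type array. This level is the value under which 95% of the 1746 probe sets for another yeast species lay. The array also carries 3 control probe sets for URA3, and each read below background on all 3 arrays. The 3′ set read 1.17, 0.97 and 0.97, the 5′ set 1.24, 1.18 and 1.18, and the middle set 1.10, 0.97 and 1.26, in the order deletion 1, deletion 2 and wild type. With both groups under background, no fold is given for URA3. The genes on either side were both measured well above background: GEA2 read 5.28 on both deletion arrays and 4.56 on the wild-type array, and TIM9 read 7.41 and 7.34 against 6.35, a rise of 1.02 (limma adjusted p = 0.0238).

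Of the 10 genes, 3 fell on the deletion arrays (URA2, URA8 and URA10), 1 rose (URA7) and 6 did neither. A gene is said to have risen or fallen where limma's adjusted p over all tested probe sets was under 0.05 and the difference, the mean of the deletion arrays minus the wild-type array, was at least 2-fold, 1 on the log2 scale. By that rule 23.8% of the 5498 tested probe sets rose and 10.2% fell. The adjusted p alone would call 80.2% of all tested probe sets, and a 2-fold difference alone 35.3%, against 5 and 4 of the 10 genes. The median difference of the 10 genes was 0.00, against 0.19 for all tested probe sets, and both became negative under other scalings (-0.13 and -0.06 after quantile normalization again, -0.25 and -0.06 after median centring). Since the wild type has 1 array, the test takes its spread from the 2 deletion arrays alone, and nothing in the labels says they came from separate cultures, so p-values cover only the spread between these arrays. The arrays hold RNA of whole cultures, so less RNA per cell and fewer expressing cells cannot be told apart.

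**Figure D1:**
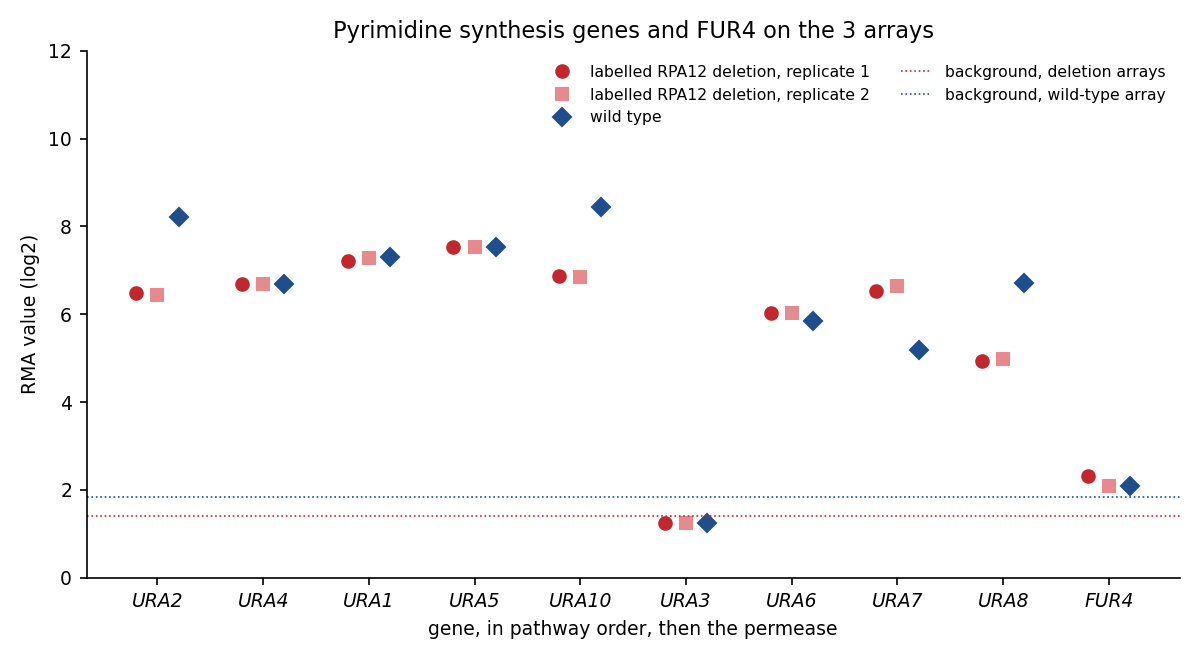
RMA values (log2, vertical axis) of the 10 genes on each of the 3 arrays, 1 point per array, with the arrays' background levels as dotted lines. For URA2, URA10 and URA8 the wild-type point lies above both deletion points, for URA7 below them, and URA3 lies under background on every array.

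URA2, the entry point of the pathway, fell. It encodes a bifunctional protein that makes carbamoyl phosphate and joins it to aspartate, and is the step that UTP inhibits. URA2 read 6.49 and 6.44 on the deletion arrays and 8.22 on the wild-type array. The deletion arrays lay close together, at 6.46 ± 0.036 (SD, n = 2), and well below the wild type. The difference was -1.76, a 3.38-fold lower signal (limma adjusted p = 0.0094), and 256 of the 5498 tested probe sets (4.66%) had a lower difference. Its neighbours on the chromosome, AIM23 (5.55 on both deletion arrays against 5.66) and TRK1 (6.20 on both against 6.79), were each less than 2-fold apart.

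URA2 is also a very long gene, with a coding length of 6645 bp, and long genes as a class were lower on the deletion arrays. Of the 120 measured genes of 4500 bp or longer, 34 fell (28.3%) and 5 rose (4.17%), with a median difference of -0.49. Of the 2087 genes under 1000 bp, 6.80% fell and 27.8% rose, with a median of 0.42. URA2 lay far down among the long genes, where 11 of 120 had a lower difference. Control probe sets for the 3′ and 5′ ends of 7 yeast genes had a gap between the ends that was wider on the deletion arrays for 5 of them (median change of the 7, 0.49), by as little as 0.02 for RIP1, and narrower for the others, with changes of -0.24 for EAF5 and -1.37 for SPT15. The median gap on each array was 2.26 and 2.35 against 2.60 in the wild type, so the gap did not move one way. The part of coding length and of this gap in the fall of URA2 was not tested. URA10 and URA8, at 684 and 1737 bp, are in length classes where 6.80% and 11% of genes fell, and the part of length was not tested for them either.

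**Figure D2:**
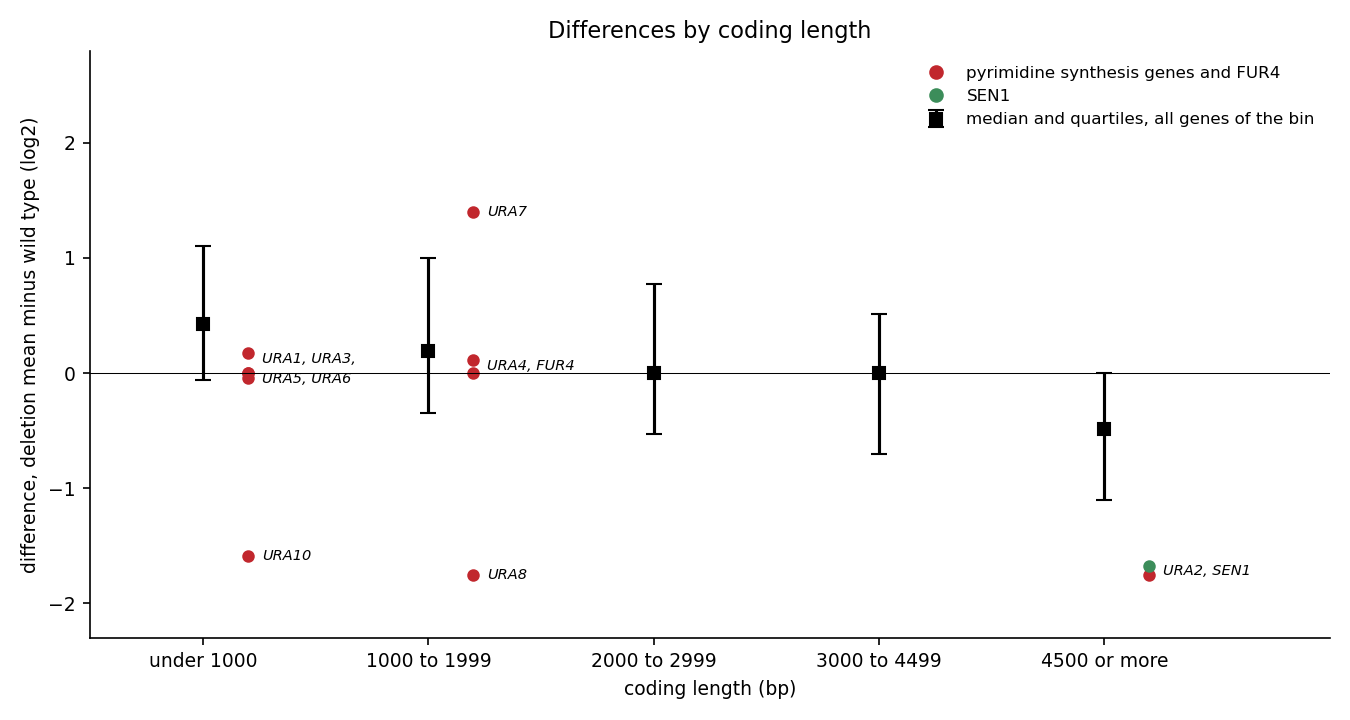
Differences (log2, deletion mean minus wild type, vertical axis) by coding length class (bp, horizontal axis): squares and bars show the median and quartiles of all genes of a class, and dots the 10 genes and SEN1. The class median goes from 0.42 under 1000 bp to -0.49 at 4500 bp or more, and URA10 and URA8 lie below the lower quartile of their own classes, as URA2 does.

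The middle of the pathway was nearly equal on the 3 arrays. URA4, which encodes dihydroorotase, the enzyme that closes the ring, read 6.68 on every array. URA1 encodes dihydroorotate dehydrogenase, which in this yeast is a cytosolic enzyme that passes electrons to fumarate, and it read 7.22 and 7.28 on the deletion arrays and 7.29 on the wild-type array. The URA1 difference of -0.04 was about the size of the spread of the deletion arrays (SD 0.039) and did not pass the test (limma adjusted p = 0.502). The URA4 values were the same to every deposited digit on all 3 arrays, as were those of 434 tested probe sets (7.89%), so no spread could be measured for it. Equal deposited values do not show equal transcript levels: after quantile normalization again the URA4 difference was -0.13 and that of URA1 -0.13, and after median centring they were -0.25 and -0.29, each under 2-fold.

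The orotate phosphoribosyltransferases, which attach ribose phosphate to the ring, moved unequally. URA5 encodes the major form and URA10 the minor form. URA5 read 7.54 on all 3 arrays, again the same to every deposited digit. URA10 read 6.88 and 6.85 on the deletion arrays and 8.45 on the wild-type array. Both deletion values lay far below the wild type, with a mean of 6.86 ± 0.023 (SD, n = 2). The difference was -1.59, a 3.0-fold lower signal (limma adjusted p = 0.0067), and 5.62% of tested probe sets had a lower difference. Relative to URA10, URA5 was higher on the deletion arrays by 1.59 ± 0.023 (SD, n = 2). An exact permutation of this value over the 3 arrays gave a one-sided p = 0.333, the smallest that 2 arrays against 1 can give. The URA10 neighbours were under 2-fold apart, RRN9 at 5.50 and 5.57 against 4.64 and SCS7 at 8.20 and 8.22 against 8.49.

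After UMP, the kinase gene was close to equal and the CTP synthase genes went in opposite directions. URA6, which encodes the kinase that makes UDP, read 6.03 on both deletion arrays and 5.85 on the wild-type array. Its difference of 0.18 was 1.13-fold and became -0.02 after quantile normalization again and -0.07 after median centring. Its limma adjusted p of 2.33e-04 rests on deletion arrays that were equal to every deposited digit, and the difference was under 2-fold.

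URA7 encodes the major CTP synthase and URA8 the minor one. URA7 read 6.52 and 6.65 on the deletion arrays and 5.18 on the wild-type array. It was the member of the 10 that was clearly higher on both deletion arrays, with a mean of 6.58 ± 0.087 (SD, n = 2). The difference was 1.40, a 2.64-fold higher signal (limma adjusted p = 0.0287), and 15.9% of tested probe sets had a higher difference. This call was lost when all probe sets of the array entered the fit (limma adjusted p = 0.0775, and from 0.0045 to 0.0775 over the alternatives), while the difference stayed at 1.40.

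URA8 read 4.94 and 4.98 on the deletion arrays and 6.72 on the wild-type array. The deletion mean of 4.96 ± 0.024 (SD, n = 2) lay well below the wild type. The difference was -1.76, a 3.38-fold lower signal (limma adjusted p = 0.0062), and 4.67% of tested probe sets had a lower difference. Relative to URA8, URA7 was higher on the deletion arrays by 3.16 ± 0.063 (SD, n = 2), an 8.92-fold shift between the isozyme genes. The exact permutation over the 3 arrays gave the same one-sided p = 0.333, its smallest. Neighbours of both genes were under 2-fold apart: MRPL16 beside URA7 read 6.47 and 6.48 against 6.91, VPS25 beside URA8 read 5.65 on every array, and SOD1 on its other side read 9.43 and 9.50 against 9.84. In all, none of the 7 measured neighbours of URA2, URA10, URA7 and URA8 rose or fell by limma with the 2-fold requirement. Their differences went from -0.58 to 0.89, and 5 had an unadjusted limma p under 0.05, as did 4535 of the 5498 tested probe sets. Of the 18 measured neighbours of all 10 genes, 4 rose and 2 fell, among them JEN1 beside URA1 at -3.84 and GAL1 and POA1 on either side of FUR4 at -2.25 and 2.27, while 34% of all tested probe sets rose or fell.

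FUR4, which encodes the uracil permease of the plasma membrane, was barely above background. It read 2.33 and 2.09 on the deletion arrays and 2.09 on the wild-type array, where the background levels were 1.42 and 1.84. The groups shared a value, and the difference of 0.12 was smaller than the spread of the deletion arrays (SD 0.16) and did not pass (limma adjusted p = 0.661). Its sign turned under both other scalings, to -0.35 after quantile normalization again and -0.13 after median centring. A level this near the background leaves little room to measure a fall of FUR4.

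**Figure D3:**
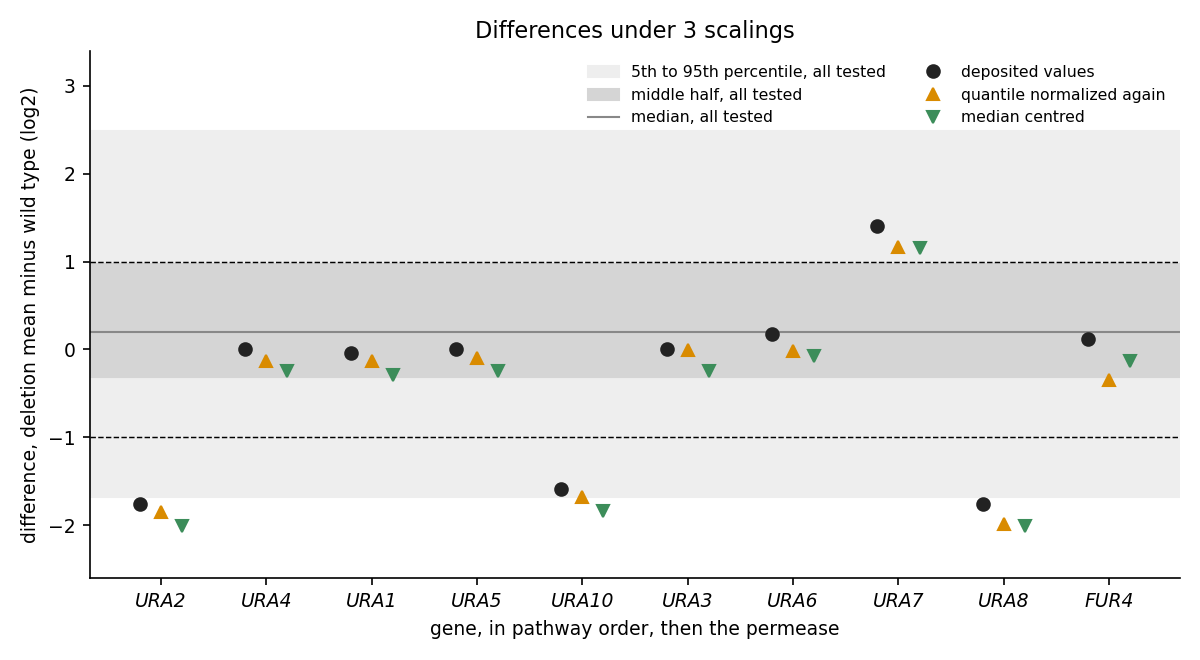
Differences (log2, deletion mean minus wild type) of the 10 genes with the deposited values and under both other scalings, over bands that show the spread of all tested probe sets, with dashed lines at 2-fold. URA2, URA10 and URA8 lie below -1 and URA7 above 1 under each of the 3 scalings, while URA6 and FUR4 change sign.

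The calls of URA2, URA10, URA8 and URA7 were made under each of the 3 scalings. The median of the deletion arrays lay 0.25 above that of the wild-type array, and relative to that shift the differences were -2.01 for URA2, -1.84 for URA10, -2.01 for URA8 and 1.15 for URA7. After quantile normalization again they were -1.85, -1.68, -1.99 and 1.16. The share of all calls that were higher was 70%, against 52.5% and 55.9% under quantile normalization and median centring.

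The gene of the pathway's activator rose, as 23.8% of all tested probe sets did. None of the 3 of its known target genes that these cells carry rose by limma with the 2-fold requirement. That count is too small to set against the share of all probe sets. PPR1 encodes a zinc-cluster transcription factor that activates URA1, URA3, URA4 and URA10. PPR1 read 4.64 on both deletion arrays and 2.55 on the wild-type array, which is 2.10 higher, or 4.28-fold (limma adjusted p = 9.15e-05, with equal deletion arrays). Of its target genes, URA1 and URA4 differed by -0.04 and 0.00, with the URA4 values equal on all arrays, and URA10 by -1.59. URA3 is lost in these cells and bears nothing on this. The PPR1 difference was 1.31 after quantile normalization again.

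The other regulators belong to the complex of Nrd1, Nab3 and Sen1, which ends short transcripts, among them those from the alternative start sites that URA2 and URA8 use when nucleotides are plentiful. SEN1, the helicase gene, read 4.37 on both deletion arrays and 6.04 on the wild-type array, and fell by 1.68 (limma adjusted p = 9.15e-05, with equal deletion arrays). At 6696 bp, SEN1 is in the length class of URA2. NRD1 read 5.63 on both against 6.10, and NAB3 read 3.52 and 3.46 against 4.08, each under 2-fold, though NAB3 reached -1.32 after quantile normalization again. Of the 4 genes known for this choice of start site, URA2 and URA8 fell, where 10.2% of all tested probe sets did. Both are already counted among the 10 genes, and a count over 4 genes is too small to set against that share. ADE12 read 7.01 on both deletion arrays against 6.99. IMD2, at 1.93 on both against 1.86 in a probe set that may also detect its near copies, was too close to the background level of 1.84 for a fall to be measured, and its difference was -0.25 after quantile normalization again.

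Genes that recover pyrimidines from bases and nucleosides went in both directions. Of 12 genes of uptake and salvage, all measured, 6 rose and 1 fell, where 23.8% and 10.2% of all tested probe sets did. The median difference of the 12 was 0.96, against 0.19 for all tested probe sets. After quantile normalization again 2 of the 12 rose, where 16.8% of all tested probe sets did, and after median centring 3, where 18.8% did. The count thus depends on the scaling and is near the share of all probe sets after quantile normalization again. SDT1, a pyrimidine nucleotidase, had the largest rise, at 6.81 and 6.75 against 2.66, a difference of 4.12 or 17.3-fold (limma adjusted p = 0.0046). FUR1 encodes the uracil phosphoribosyltransferase by which cells without URA3 make UMP, and it read 7.40 and 7.44 against 5.89, a difference of 1.53 or 2.88-fold (limma adjusted p = 0.0100). SDT1 and FUR1 were the genes that rose under each of the 3 scalings, at 3.47 and 1.38 after quantile normalization and 3.87 and 1.28 after median centring.

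FUI1, the uridine permease, went the other way. It read 5.20 and 5.28 on the deletion arrays, against 6.88 in the wild type, and fell by 1.65 (limma adjusted p = 0.0162), by 1.82 after quantile normalization again. DAS2, which resembles uridine kinases, read 3.77 on both against 2.18, a rise of 1.58 that became 0.86 after quantile normalization again. URK1, the uridine kinase, rose by 1.25, URH1, a uridine nucleosidase, by 1.18 and FUN26, a nucleoside transporter of the vacuole, by 1.00, and none of these 3 reached 2-fold under either other scaling. FCY1, the cytosine deaminase, and FCY2, the cytosine and purine permease, differed by 0.08 and 0.00. FCY22 was below background on all arrays. Among 6 permeases of the family of FUR4, FUI1 fell and none rose, where 10.2% and 23.8% of all tested probe sets did. These counts are too small to set against those shares. DAL4, NRT1 and THI72 read the same on all 3 arrays, as 7.89% of all tested probe sets did, and DAL4 was not above background. The median of the 6 was 0.00, against 0.19 for all tested probe sets. THI7, a thiamine permease, read 6.58 and 6.49 against 7.29. The family median was -0.72 after quantile normalization again, with NRT1 at -0.60 and THI72 at -0.85, and -0.25 after median centring, where THI7 also fell, by 1.00.

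**Figure D4:**
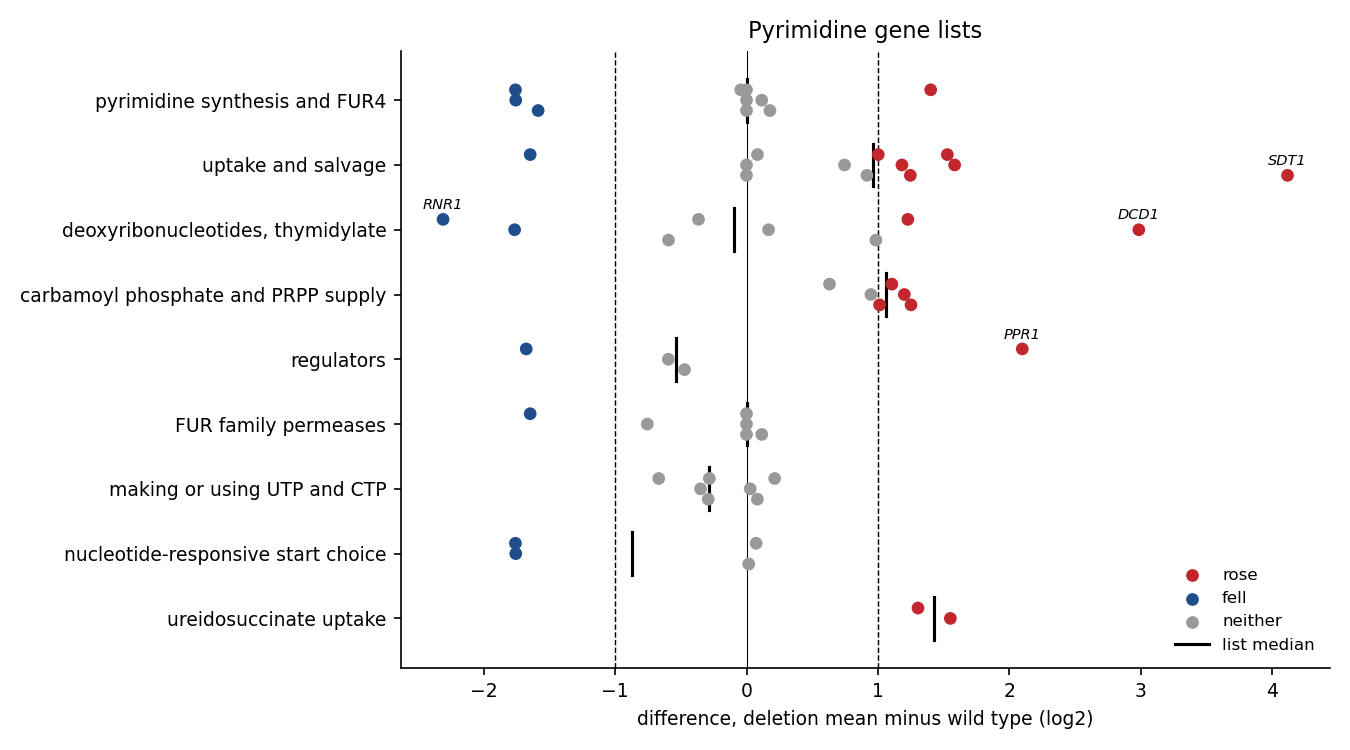
Differences (log2, deletion mean minus wild type, horizontal axis) of the genes in each pyrimidine gene list, 1 dot per gene, coloured by whether the gene rose, fell or did neither, with the list median as a bar and dashed lines at 2-fold. The salvage list has its median at 0.96, while that of the 10 genes is at 0.00 with 3 of them below -1. The median of all tested probe sets, not drawn, was 0.19.

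Some genes for the supply of substrates rose, by amounts near 2-fold. Of the 7 genes for carbamoyl phosphate and phosphoribosyl pyrophosphate, 6 were measured. Of these, 4 rose and none fell (median 1.06), where 23.8% and 10.2% of all tested probe sets did. PRS2, PRS3, PRS4 and PRS5, which encode phosphoribosyl pyrophosphate synthetases, rose by 1.25, 1.20, 1.11 and 1.01, and PRS1 and CPA1, the latter a subunit of the arginine pathway's carbamoyl phosphate synthetase, differed by 0.63 and 0.95. These rises lie near the threshold. After quantile normalization again 2 remained, PRS2 and PRS3, where 16.8% of all tested probe sets rose. After median centring PRS2 alone remained, where 18.8% rose. The count thus depends on the scaling and is near the share of all probe sets under median centring.

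Deoxyribonucleotide and thymidylate genes went in both directions. Of 8, 2 rose and 2 fell, with a median of -0.10, where 23.8% and 10.2% of all tested probe sets did. The rises are thus near the share of all probe sets. After quantile normalization again 2 rose and 3 fell, with CDC21 at -1.24, where 16.8% and 15.2% of all tested probe sets did. The deposited CDC21 values were 1.93 on both deletion arrays, near the background of 1.42, against 2.52. After median centring 1 rose and 2 fell, where 18.8% and 14.8% did. DCD1, the deaminase that turns dCMP into dUMP, read 4.79 and 4.91 against 1.86, a value just above background, and rose by 2.98 (limma adjusted p = 0.0139). DUT1, which breaks down dUTP, rose by 1.23, and by 0.98 after median centring, under 2-fold. RNR1, the large subunit of ribonucleotide reductase, read 1.77 and 1.93 against 4.16 and fell by 2.31 (limma adjusted p = 0.0226). The RNR1 values on the deletion arrays were near the background of 1.42, which limits how large a fall can be measured. RNR2, a small subunit, read 5.40 and 5.55 against 7.24 and fell by 1.76 (limma adjusted p = 0.0278). Both calls were lost when all probe sets of the array entered the fit, with limma adjusted p of 0.0636 and 0.0755.

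Enzymes that make or use UTP and CTP were near level: none of 7 rose or fell by the rule, where 34% of all tested probe sets did. The median of the 7 was -0.28, with differences from -0.67 (TAM41, a mitochondrial CDP-diacylglycerol synthase) to 0.21 (CDS1). By limma's adjusted p alone, 2 of the 7 were higher and 4 lower, where 50.4% and 29.7% of all tested probe sets were. An unadjusted limma p was under 0.05 for 6 of the 7, as for 4535 of the 5498 tested probe sets. None of the 7 was 2-fold apart. YNK1, the nucleoside diphosphate kinase, read 8.48 and 8.47 against 8.77. Of 2 genes tied to uptake of ureidosuccinate, the product of the URA2 protein, both rose, where 23.8% of all tested probe sets did. After quantile normalization again 1 rose, where 16.8% did. URE2, a regulator of nitrogen catabolite repression, rose by 1.55 and DAL5, a permease for allantoate and ureidosuccinate, by 1.30, which became 0.42 after quantile normalization again.

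The genes whose pattern over the 3 arrays lay closest to each changed gene were found by the Euclidean distance between values centred on each gene's own mean. With 3 arrays, 2 of them nearly equal, such a pattern holds little more than 1 difference, and many genes share it. For URA2 the closest were GPX1, ECM33 and TDH1, at distances of 0.0052, 0.0071 and 0.0131, with 36 genes within 0.1. For URA8 they were BCY1, YBL113C and TIP1, with 45 genes within 0.1, and for URA10 YOR394C-A, NAM2 and ATG39, with 47. For URA7 they were YIP4, INO4 and TAH1, with 93 genes within 0.1.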

How the data were processed

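The authors deposited log2 probe-set values made with RMA, and Affymetrix Expression Console is also named, per the submitters' processing notes. Their versions were not given in the sources used here. Each array received the labelled product of 6 µg total RNA, per the labels' protocols. RMA forces the arrays of a run onto one distribution, which hides a shift of most transcripts, and the main values were used without further normalization. Quantile normalization again and median centring were made over the 5498 tested probe sets alone, whose medians before that were 5.74, 5.74 and 5.49.

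Of 10928 probe sets, 5498 with 1 symbol of a S. cerevisiae gene were tested (5449 genes), with 12 symbols updated through RefSeq's gene table (assembly R64). It also gave lengths and neighbours. For a gene with several, the probe set with the highest mean was taken. Lengths were multiples of 3 for 97% of genes and were taken as coding lengths, which this share does not show for each gene. The remaining lengths are not those of a coding sequence alone. limma 3.58.1 in R 4.3.3 (lmFit, eBayes, two-sided, Benjamini-Hochberg over all 5498) gave the p-values, on 1 residual degree of freedom. The deletion arrays were equal to every deposited digit for 44.2% of probe sets, which leaves no spread to test against, so at least 2-fold was also required. The calculation was tested on simulated data with the same spread for every probe set. That test could not show how equal deletion arrays affect the calls. The number of arrays limits the precision: medians were 5.74, 5.74 and 5.49, and 96.9%, 96.9% and 93.3% of probe sets lay above background.

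The 10 genes and the lists were chosen with earlier results of these data known. Named genes are the 10, PPR1, DAL5, URE2, the markers, changed genes of each list (up to 4, with all of lists of up to 4), neighbours of URA3 and of changed genes, and the 3 closest patterns. Other genes named (further list members, and some beyond 4 of a list) were chosen after their values were seen. Promoter motifs and protein sequences were not analysed here.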

Additional observations from a re-analysis of the deposited data

Results flagged for a closer look

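Outside the tested genes, the array holds 47 probe sets for reporter and marker constructs, of which 1 was higher by 2-fold or more on the deletion arrays and 1 was lower. The higher one read 9.97 ± 0.049 (SD, n = 2) against 4.07 in the wild type, which is 5.90 higher, and is given because no comparison above uses it and its signal exceeds that of the control array. What it detects is not named in the sources used here.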

How the results depend on the processing

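URA2, URA10 and URA8 were lower by at least 2-fold under each of the 8 alternatives that give a difference. The ranges were -2.01 to -1.73, -1.84 to -1.57 and -2.01 to -1.74. Where a deletion replicate was left out, no test was made. Where an alternative changed only the test, or averaged the probe sets of a gene, these differences could not change. The ranges thus come from the other scalings and the omitted replicates. URA7 kept its sign (1.15 to 1.46) and lost its call in the fit over all probe sets, where 0 members rose and, of all tested probe sets, 1027 rose and 369 fell against 1310 and 562. By limma adjusted p alone, 2 members rose (URA6 and URA7), and 2773 and 1634 of all tested probe sets rose and fell. The sign of URA6 turned after quantile normalization again (-0.022) and median centring (-0.072), that of FUR4 likewise (-0.35 and -0.13), and so did the median of all tested probe sets (-0.064 and -0.056); the cause was not tested. Leaving out each deletion replicate in turn gave 1 rise and 3 falls among the members each time, and 1339 to 1343 rises and 601 to 609 falls among all probe sets, by size alone without a test. Without URA3, chosen after seeing the data, the counts were again 1 and 3. The view by coding length was also chosen after seeing the data. No paired analysis was possible because the wild-type array has no replicate number and the group holds 1 array.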
